A study of Mus musculus with 5 samples.

Results

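Fibroblast growth factor (FGF) signalling was examined at 9 of the 21887 protein-coding genes of the mouse table used here. Fgf4, Fgf8, Fgf9 and Fgf17 are ligands of the apical ectodermal ridge, Fgf10 and Fgf20 are ligands made in other cells of the limb and skin, and Fgfr1, Fgfr2 and Fgfr3 are receptors. The genes were chosen by name and role, but with earlier results of these data known. A peak was assigned to a gene when its summit lay in the gene body, or within 100 kb of it with no other protein-coding gene nearer. Accessible DNA was profiled by ATAC-seq, which tags DNA that a transposase can reach, in CD1 mouse embryos. Ectoderm of the distal forelimb gave 2 libraries at E14.5 (E, embryonic day), ectoderm of the distal hindlimb gave 2 at the same stage, and forebrain gave 1 at E13.5. No genotype or treatment is given for any group, and no label says whether replicates came from separate embryos. Trypsin was used to take ectoderm off the mesoderm and collagenase to dissociate forebrain. Effects of tissue, stage and enzyme therefore cannot be told apart between ectoderm and forebrain. When overlapping peaks of the 5 libraries were joined, the 9 genes held 121 of 182778 regions assigned to protein-coding genes.

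FGFs are secreted proteins that bind receptor tyrosine kinases together with heparan sulfate and switch on the Ras and MAP kinase pathway. In the mouse limb bud the apical ectodermal ridge, a transient strip of thickened ectoderm at the tip, secretes ridge FGFs that keep the mesenchyme growing. Whether a ridge was still present in the ectoderm sampled at E14.5 was not tested, and the name ridge ligands refers to the role of these genes in the limb bud. Mesenchyme answers with Fgf10, which signals to the ectoderm through an epithelial splice form of Fgfr2. Fgf20 is a signal of hair placodes in mouse skin. In the embryonic forebrain, Fgf8 and Fgf17 come from a patterning centre at the anterior midline, and Fgfr1, Fgfr2 and Fgfr3 are expressed in neural progenitors.

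The deposited lists held 73830 and 73718 distinct intervals for the forelimb pair, 51510 and 78147 for the hindlimb pair (replicates 1 and 2), and 120297 for forebrain. They hold no read totals, so depth is given here only through list length. Markers of the tissues were checked by a peak within 1 kb of the gene start. For any gene without a listed start, either end of the gene body was used, and such a peak is also called a start peak. Epidermal markers had one at 7 and 8 of 9 genes in forelimb, 5 and 7 in hindlimb, against 5 in forebrain. Forebrain markers had one at 4 and 2 of 7 genes in forelimb, 4 and 4 in hindlimb, against 7 in forebrain. Limb mesenchyme markers had one at 5 and 4 of 6 genes in forelimb, 3 and 4 in hindlimb, against 6 in forebrain. Melanocyte, endothelial and blood markers had one at 1 or 2 of 4 genes each in every ectoderm library, against 2, 3 and 3 in forebrain. Among all protein-coding genes 52.9% to 61.4% had a start peak in the ectoderm libraries and 66% in forebrain. Krt14, a keratin of basal epidermis, had no start peak in any library, and Trp63, its regulator, had one in forelimb replicate 2 only. Cell makeup and accessibility per cell cannot be told apart in such bulk libraries. Counted over all their regions, 17 of 134 at epidermal markers were found in every ectoderm library but not in forebrain, against 2 of 179 at forebrain markers. The same pattern was seen in 1 of 107 at limb mesenchyme, 3 of 65 at melanocyte, 0 of 70 at endothelial and 0 of 50 at blood markers. Its share over all assigned regions was 2.35%.

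Receptor genes carried the most peaks and ridge ligands the fewest, and the order held in every library except hindlimb replicate 2, where ridge and other ligands had equal counts. The receptors held 28 and 20 summits in forelimb (replicates 1 and 2, the order used throughout), 11 and 28 in hindlimb, against 46 in forebrain. Fgf10 and Fgf20 together held 11 and 10 in forelimb, 6 and 11 in hindlimb, against 31 in forebrain. The 4 ridge ligands held 9 and 5 in forelimb, 3 and 11 in hindlimb, against 16 in forebrain. The length of sequence nearest to each gene also differed, and was 8.66 kb for Fgf17, which has close neighbours, and 278 kb for Fgf10. Per 100 kb of such sequence, receptors had 6.79 and 4.85 summits in forelimb, 2.67 and 6.79 in hindlimb, against 11.2 in forebrain. Over all protein-coding genes the densities were 3.70 and 3.56 in forelimb, 2.46 and 3.89 in hindlimb, against 6.52 in forebrain, below the receptors in each library. The gap was narrow in hindlimb replicate 1, where Fgfr1 had 2.88, Fgfr2 2.25 and Fgfr3 4.83. Ridge ligands had 3.44 and 1.91 per 100 kb in forelimb, 1.15 and 4.20 in hindlimb, against 6.11 in forebrain, above the all-gene density in hindlimb replicate 2 alone. Fgf10 and Fgf20 had 2.78 and 2.53 in forelimb, 1.52 and 2.78 in hindlimb, against 7.83 in forebrain, so they lay under the all-gene density in each ectoderm library and over it in forebrain. No p-value is given for these or later comparisons, because the single forebrain library has no replicate and 2 libraries per limb cannot reach a p of 0.05 in an exact permutation test.

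**Figure D1:**
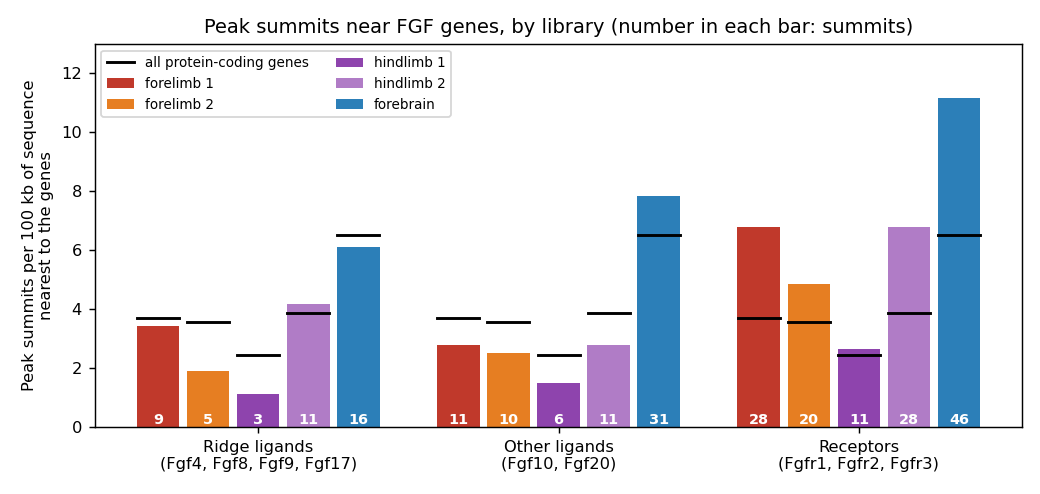
Bars give peak summits per 100 kb of sequence nearest to the genes of each class, for each of the 4 ectoderm libraries and the forebrain library, and the number at the foot of each bar is its count of summits. Black lines give the same density over all protein-coding genes: receptors stood above it in all 5 libraries, though narrowly in hindlimb replicate 1 (2.67 against 2.46).

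Taken by the libraries that shared them, the 121 regions were divided in proportions near those of all assigned regions. Ectoderm-only regions, called in all 4 ectoderm libraries but not in forebrain, made up 3 of them, or 2.48%, against 2.35% of all assigned regions. Forebrain-only regions, called in forebrain but in none of the ectoderm libraries, made up 41, or 33.9%, against 32.1%. Forebrain had a peak in 69 of the 121, against 53.1% of all assigned regions. Regions shared by all 5 libraries numbered 6, or 4.96%, against 8.15%. A single library accounted for 80 of the 121, against 68.7% of all assigned regions. The 3 ectoderm-only regions lay at Fgf10, Fgf20 and Fgfr2, and none was assigned to a ridge ligand, where 0 of 24 regions allow a share of up to 14.2% (exact Clopper-Pearson 95% interval, which covers counting error only). Fgf10 and Fgf20 had 19 forebrain-only regions of 38 (50%, interval 33.4 to 66.6), receptors 17 of 59 (28.8%, 17.8 to 42.1) and ridge ligands 5 of 24 (20.8%, 7.13 to 42.2). Of the 19, 13 lay at Fgf10. The intervals treat regions as independent, but regions of the same gene are not replicates and forebrain has a single library. They therefore test no difference from the share over all regions. The forebrain list is the longest, and these counts were lower in lists of equal length. With every list shortened to its strongest summits, at the length of the shortest list, 1 forebrain-only region was found at Fgf10 and Fgf20, 4 at receptors and 2 at ridge ligands, and the share over all assigned regions was 14.7%.

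**Figure D2:**
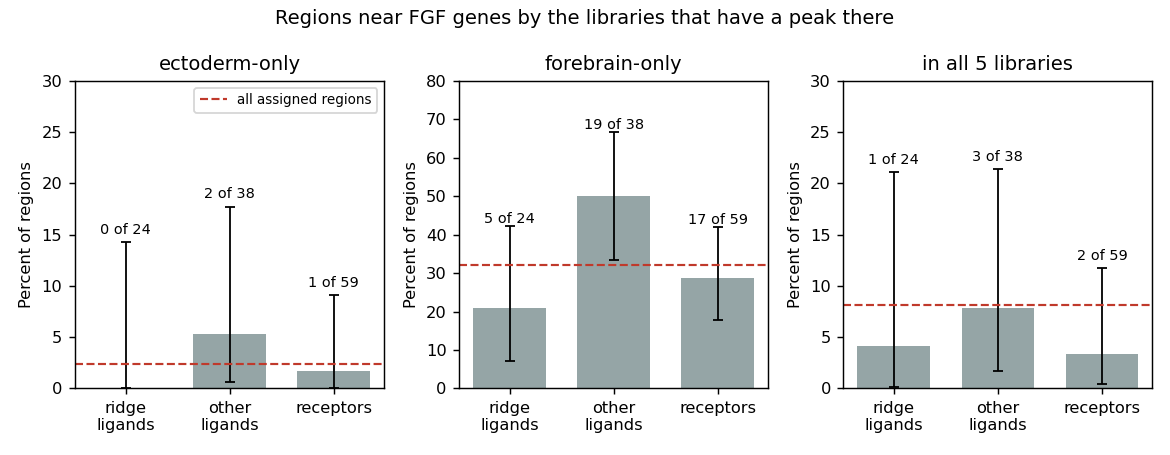
Each panel gives the percent of regions in a class that were ectoderm-only, forebrain-only or present in all 5 libraries, with exact 95% intervals and the count above each bar. The intervals treat regions as independent, which regions of the same gene are not, so they test no difference from the dashed line. Dashed lines mark the share over all regions assigned to protein-coding genes, and the forebrain-only share of Fgf10 and Fgf20, at 19 of 38, stood farthest from it.

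Most of the 9 genes had a peak within 1 kb of the start, or of an end of the gene body, in both tissues. The table of starts covers Fgf4, Fgf9, Fgf10, Fgfr2 and Fgfr3, and for Fgf8, Fgf17, Fgf20 and Fgfr1 either end of the gene body was used. Of the 21887 protein-coding genes 17492 have a listed start, and the rest were scored at either end as well. Genes scored at either end have more places to count, and they are a larger part of the members than of all genes. Peaks within 1 kb were found at 8 and 6 of the 9 genes in the forelimb libraries, 7 and 8 in those of hindlimb, and 9 in forebrain. Among all protein-coding genes such a peak was present in 61.4% and 58.9% in forelimb, 52.9% and 61.1% in hindlimb, against 66% in forebrain. All 5 libraries had one at Fgf10, Fgf20, Fgfr1, Fgfr2 and Fgf17, a share of 5 in 9 against 48.5% of all genes. Of these, Fgf20, Fgfr1 and Fgf17 were scored at either end, so the shares are not fully alike. The summits beside Fgf17 were nearer to the adjoining gene Dmtn and were assigned to it. At Fgf8 and Fgf17 every summit counted here lay by the lower end of the gene body. The strand of these genes is not listed, so that end may not be the start, and both may be counted without a peak at their start. No member had a start peak in forebrain without one in some ectoderm library, a pattern at 3.85% of all genes, and none had one in all 4 ectoderm libraries but not in forebrain, at 0.516% of all genes.

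The positions of these peaks differed between genes in a way that the counts do not show, and 4 promoters are printed here because they cover the range. Each sequence is the 250 bases before the annotated start, from RefSeq (GRCm38.p6, the assembly of mm10), written 5′ to 3′ on the strand of the gene. Capitals mark matches to the GC box GGGCGG on either strand, a binding motif of Sp and Kruppel-like factors. The windows are chr7:144861136-144861385 (plus strand) for Fgf4, chr13:118714449-118714698 (plus) for Fgf10, chr7:130266809-130267058 (minus) for Fgfr2 and chr5:33721474-33721723 (plus) for the first of the 2 annotated starts of Fgfr3.
Fgf4: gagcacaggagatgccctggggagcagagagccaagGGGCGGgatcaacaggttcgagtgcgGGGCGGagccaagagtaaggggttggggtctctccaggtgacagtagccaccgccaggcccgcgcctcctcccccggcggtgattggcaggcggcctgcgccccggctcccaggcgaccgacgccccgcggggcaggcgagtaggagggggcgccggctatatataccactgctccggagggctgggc
Fgf10: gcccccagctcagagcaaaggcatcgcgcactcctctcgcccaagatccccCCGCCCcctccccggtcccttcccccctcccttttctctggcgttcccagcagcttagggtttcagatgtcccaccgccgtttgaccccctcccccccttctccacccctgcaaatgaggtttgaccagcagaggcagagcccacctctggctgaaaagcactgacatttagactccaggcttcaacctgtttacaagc
Fgfr2: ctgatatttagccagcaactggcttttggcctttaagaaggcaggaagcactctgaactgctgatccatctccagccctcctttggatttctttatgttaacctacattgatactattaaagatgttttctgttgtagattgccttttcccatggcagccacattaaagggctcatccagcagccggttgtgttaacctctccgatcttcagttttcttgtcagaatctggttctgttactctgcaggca
Fgfr3: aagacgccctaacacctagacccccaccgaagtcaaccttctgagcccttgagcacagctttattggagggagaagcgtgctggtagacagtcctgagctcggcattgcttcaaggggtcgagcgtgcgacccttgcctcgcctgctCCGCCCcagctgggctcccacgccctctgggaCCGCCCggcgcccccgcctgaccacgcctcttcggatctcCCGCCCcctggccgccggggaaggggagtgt

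The GC box occurred at 2 places in the Fgf4 window, 1 in Fgf10, 3 in Fgfr3 and 0 in Fgfr2, and at least 1 was held by 32.7% of 32851 RefSeq windows of the same length. The Fgfr2 window was the poorest of the 4 in G and C, at 44% with 2 CpG dinucleotides, against 71.2% and 21 for Fgf4, 66.8% and 19 for Fgfr3 and 61.2% and 8 for Fgf10. The median over all windows was 52.4% and 6. Another 8 motifs were searched on both strands. Of these, CAGATG (an E-box of proneural factors, in 14.4% of windows) had 1 match, in Fgf10, which overlapped no GC box. In the 4 windows there was no match to the others, which were the AP-1 motif TGANTCA (6.75% of all windows), the AP-2 motif GCCNNNGGC (13.7%), the LEF/TCF motif CTTTGA (13.8%), the homeodomain motif TAATTA (4.84%), the GATA motif AGATAA (9.99%), the SOX motif ACAATG (10.7%) and the ETS motif CCGGAA (12.0%).

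The Fgf10 promoter shown above was covered over all 250 bases by the forebrain peak and over 0 bases in each of the 4 ectoderm libraries. The ectoderm summits lay within the gene, 613 and 601 bp after the start in forelimb and 403 and 623 bp in hindlimb. The strongest forebrain summit lay 308 bp before the start, with a fold enrichment of 6.42, and weaker ones followed at 210 and 519 bp after it in the same interval. A separate forebrain interval held summits 978 and 1277 bp after the start, and forelimb replicate 2 had its second summit at 1266 bp. Forebrain thus had summits near those of ectoderm as well, and the one before the start had no counterpart in the ectoderm lists. Fold enrichment here is the authors' value for a peak over local background in its own list. Joined by overlap these peaks count as 1 region of all 5 libraries, although the forebrain interval reached beyond the start and the ectoderm intervals did not. The forebrain list is longer, and the forebrain intervals at Fgf9 and Fgfr2 were also wider than the ectoderm ones. The part of list length in this difference was not tested.

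At Fgfr2 the promoter itself had a peak over 0 bases in every library. The summit with the highest fold near the start lay inside the gene, 451 and 506 bp after the start in forelimb, 475 and 501 bp in hindlimb, against 481 bp in forebrain. Weaker summits lay at 193 bp in hindlimb replicate 2 and at 959, 1291 and 1714 bp in forebrain. The Fgfr3 promoter printed above was covered over 186 bases in forelimb replicate 1, 14 in hindlimb replicate 2, 225 in forebrain and 0 in the other libraries. The 250 bases before the second annotated Fgfr3 start, which lie inside the gene body, were covered over 250 and 0 bases in forelimb, 115 and 168 in hindlimb, against 250 in forebrain. The Fgf4 promoter was covered in full in hindlimb replicate 2 and over 0 bases in each other library. The Fgf9 summits lay 501 and 469 bp before its start in forelimb, 512 bp in hindlimb replicate 1 and 490 bp in forebrain, with none within 1 kb in hindlimb replicate 2. That start lies inside the gene body, whose ends were not scored for Fgf9. Hindlimb replicate 2 had a summit 0.163 kb below the lower end of the body (fold 2.97). Forelimb replicate 2 had another 0.13 kb below that end (fold 3.74).

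**Figure D3:**
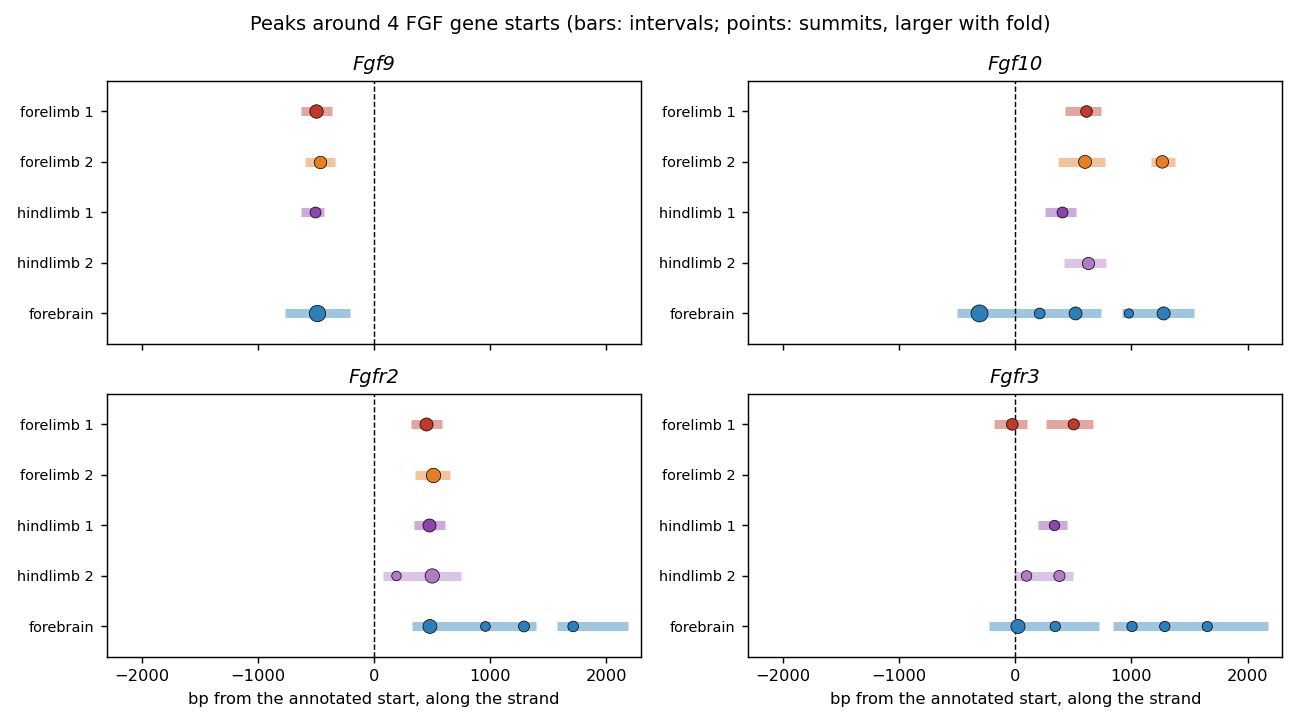
Peak intervals (bars) and summits (points, larger with higher fold in the library's own list) are drawn within about 2 kb of the start of Fgf9, Fgf10, Fgfr2 and Fgfr3, by distance along the strand in bp. The forebrain interval at Fgf10 spans the start, with its largest summit 308 bp before it, while ectoderm summits lie 403 to 623 bp after it, and 1 more in forelimb replicate 2 lies farther in.

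Among the ridge ligands, Fgf8 is the main ridge signal in mouse and Fgf4 shares its work. Fgf4 (chr7:144861386-144865245) had 0 summits in both forelimb libraries, 0 and 2 in the hindlimb pair, and 3 in forebrain. Its 4 regions were each found in 1 library. The strongest ectoderm peak, at the start in hindlimb replicate 2, had a fold of 2.71 and a −log10 q of 3.51, and the strongest forebrain peak had 2.89 and 4.01. An ectoderm-only region lay 18.0 kb beyond Fgf4 at chr7:144883068-144883536, but was assigned to the nearer Fgf15. It was singled out after its values were seen. Its folds were 4.83 and 4.57 in forelimb and 5.53 and 9.01 in hindlimb.

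Fgf8 (chr19:45736491-45742941) had 2 and 1 summits in forelimb, 0 and 1 in hindlimb, against 4 in forebrain, in 3 regions. The region chr19:45717493-45718283 lay 18.4 kb below the gene with a fold of 5.10 in forelimb replicate 1 and 8.03 in forebrain, and no peak in the other 3 libraries. A region inside the gene, chr19:45736889-45737555, had folds of 3.23 in forelimb replicate 1, 2.69 in hindlimb replicate 2 and 3.68 in forebrain. In no region was Fgf8 marked by both replicates of a limb. Ridge enhancers of mouse Fgf8 have been mapped inside and around the neighbouring gene Fbxw4, which the assignment by nearest gene leaves out, so Fbxw4 was also looked up, after its values were seen. Of its 21 regions 1 was ectoderm-only, chr19:45649921-45650313, which lay within Fbxw4 and 86.2 kb from Fgf8. Its folds were 10.5 and 12.3 in forelimb and 14.9 and 14.9 in hindlimb. Ranked by −log10 p in its own list, it stood at percentiles 92.4 and 96.8 in forelimb and 99.6 and 95.7 in hindlimb, where 100 is the strongest peak. The nearest forebrain peak was 9114 bp away. Which gene this region acts on, if any, was not tested.

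Fgf9, an epithelial ligand that also acts in the ridge, held most of the ridge ligands' peaks. Its gene body (chr14:58070671-58112854) and surroundings had 6 and 4 summits in forelimb, 3 and 7 in hindlimb, against 9 in forebrain. The region chr14:58076046-58076605, 3.76 kb after the start, had a peak in all 5 libraries, with folds of 3.24 and 4.59 in forelimb, 4.25 and 5.05 in hindlimb, against 4.03 in forebrain. By rank within the list it was the strongest Fgf9 region in 3 of the 4 ectoderm libraries. In forelimb replicate 1 and in forebrain the strongest was the start region chr14:58071923-58072477, with folds of 4.21 and 3.66 in forelimb, 2.74 in hindlimb replicate 1 and 6.05 in forebrain. Of its 16 regions 11 were in 1 library and 3 were forebrain-only. Fgf17 (chr14:70636203-70642268), which in mouse is made in part of the ridge, had 1 region, chr14:70637462-70637857, inside the gene. It had folds of 4.92 in forelimb replicate 1 and 4.45 in hindlimb replicate 2, and no peak in the other libraries, forebrain included.

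Fgf10 (chr13:118714699-118792573), the mesenchymal partner of the ridge, had 7 and 6 summits in forelimb, 2 and 4 in hindlimb, against 20 in forebrain. Forebrain-only regions made up 13 of its 25 regions, 6 of them inside the gene body. Its ectoderm-only region, chr13:118669610-118670137, lay 44.8 kb before the start. The folds there were 5.96 and 11.9 in forelimb and 2.78 and 8.70 in hindlimb, and by rank within the list this was the strongest Fgf10 region in each ectoderm library except hindlimb replicate 1, where the start region ranked higher. Hindlimb replicate 1 held it only weakly, at a −log10 q of 2.13, so that at a threshold of 5 it was no longer ectoderm-only. A forebrain peak lay 1705 bp away. Fgf10 is a mesenchyme gene, and the mesenchyme markers with a start peak in ectoderm are given above. Their part in the peaks at Fgf10 was not tested.

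Fgf20 (chr8:40279166-40286953), a ligand of hair placodes, had 4 and 4 summits in forelimb, 4 and 7 in hindlimb, against 11 in forebrain. Of its 13 regions, 2 had a peak in all 5 libraries, 1 was ectoderm-only and 6 were forebrain-only. The region at the upper end of the gene, chr8:40286137-40287636, had folds of 4.01 and 4.87 in forelimb, 2.83 and 4.38 in hindlimb, against 5.38 in forebrain. The strongest in both tissues by −log10 q was chr8:40296475-40296877, 9.69 kb above the gene, at 8.27 and 9.70 in forelimb, 7.27 and 11.2 in hindlimb, against 13.46 in forebrain. The ectoderm-only region, chr8:40257628-40258128, lay 21.4 kb below the gene. Its folds were 7.81 and 8.55 in forelimb and 5.41 and 11.3 in hindlimb, and its percentile ranks of 82.0 and 86.2 in forelimb and 80.7 and 87.9 in hindlimb were lower than those of the shared region, 86.3 and 89.2 in forelimb and 89.0 and 88.2 in hindlimb. The nearest forebrain peak was 11815 bp off. At the outer limit of assignment, the farthest summit counted was a forebrain peak 98.0 kb from Fgf20 (fold 2.67), and the first left out was a hindlimb replicate 1 peak 104.6 kb from Fgf20 (fold 3.73).

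Fgfr1 (chr8:25518759-25575718), the receptor of mesenchyme and of neural progenitors, had the strongest start peak of the set. It held 9 and 6 summits in forelimb, 3 and 9 in hindlimb, against 11 in forebrain. The region chr8:25518556-25519716 had folds of 9.81 and 9.18 in forelimb, 5.78 and 10.2 in hindlimb, against 12.3 in forebrain. It ranked at percentiles 95.8 and 95.2 in forelimb, 90.8 and 94.7 in hindlimb, against 95.8 in forebrain, and its main summit was 12 to 36 bp from the lower end of the gene in all 5 libraries. Inside the gene, 3 regions had a peak in every library except hindlimb replicate 1. For chr8:25544629-25545437 the folds were 3.21 and 3.59 in forelimb, 4.03 in hindlimb replicate 2 and 9.27 in forebrain. For chr8:25543357-25543880 they were 2.88 and 3.03 in forelimb, 4.74 in hindlimb replicate 2 and 7.14 in forebrain. Regions in all 5 libraries numbered 2 of 59 at the receptors, or 3.39%. When hindlimb replicate 1, the shortest list, was left out, 8 receptor regions were in all remaining libraries, of a total that was not worked out. The share over all assigned regions was then 12.4%, against 8.15% with that library. Because the share rose over all regions too, the higher count is not read as a result about receptors. Fgfr1 had 13 regions, 3 of them forebrain-only and 0 ectoderm-only.

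Fgfr2 (chr7:130162451-130266808), whose epithelial form receives Fgf10, had 14 and 11 summits in forelimb, 6 and 14 in hindlimb, against 25 in forebrain, the most of any member in each library. Per 100 kb of nearest sequence it was the lowest of the receptors in each library. In forebrain it had 9.37, against 10.6 for Fgfr1 and 24.2 for Fgfr3. Its ectoderm-only region, chr7:130082508-130083032, lay 79.6 kb beyond the far end of the gene and 184 kb after the start. Folds were 5.76 and 6.17 in forelimb and 3.79 and 8.66 in hindlimb, and each passed a −log10 q of 5. By rank within the list it was the strongest Fgfr2 region in each ectoderm library except hindlimb replicate 1, where the start region ranked higher. The nearest forebrain peak was 7830 bp away. The strongest forebrain region by −log10 q, chr7:130215434-130216328, lay inside the gene 50.8 kb after the start, with a fold of 4.16 in forelimb replicate 2, 3.30 in hindlimb replicate 2 and 11.4 in forebrain. Of 37 regions, 10 were forebrain-only and 23 were in 1 library.

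Fgfr3 (chr5:33721724-33737068), a receptor that restrains bone growth and is also found in epidermis, had 5 and 3 summits in forelimb, 2 and 5 in hindlimb, against 10 in forebrain. A pair of regions before its start was called in 3 ectoderm libraries but not in forebrain. At least 3 ectoderm libraries without forebrain was the pattern of 5 of the 121 member regions, ectoderm-only ones included, and of 5.37% of all assigned regions. At chr5:33712600-33712912, 8.96 kb before the start, the folds were 5.15 and 4.46 in forelimb and 4.27 in hindlimb replicate 2. At chr5:33716350-33716877, 5.03 kb before it, they were 4.39 and 3.42 in forelimb and 5.74 in hindlimb replicate 2. Hindlimb replicate 1 had no peak in either, and without that library receptors had 3 ectoderm-only regions against 1 with it. The share over all assigned regions also rose, to 5.18% against 2.35%, and the receptor total without that library was not worked out. Forebrain instead had its strongest Fgfr3 peak at chr5:33705197-33706032, 16.2 kb before the start, with a fold of 6.18 and no peak in any ectoderm library. The start region chr5:33721499-33722445 had folds of 3.20 in forelimb replicate 1, 2.51 and 2.91 in hindlimb, against 4.60 in forebrain.

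**Figure D4:**
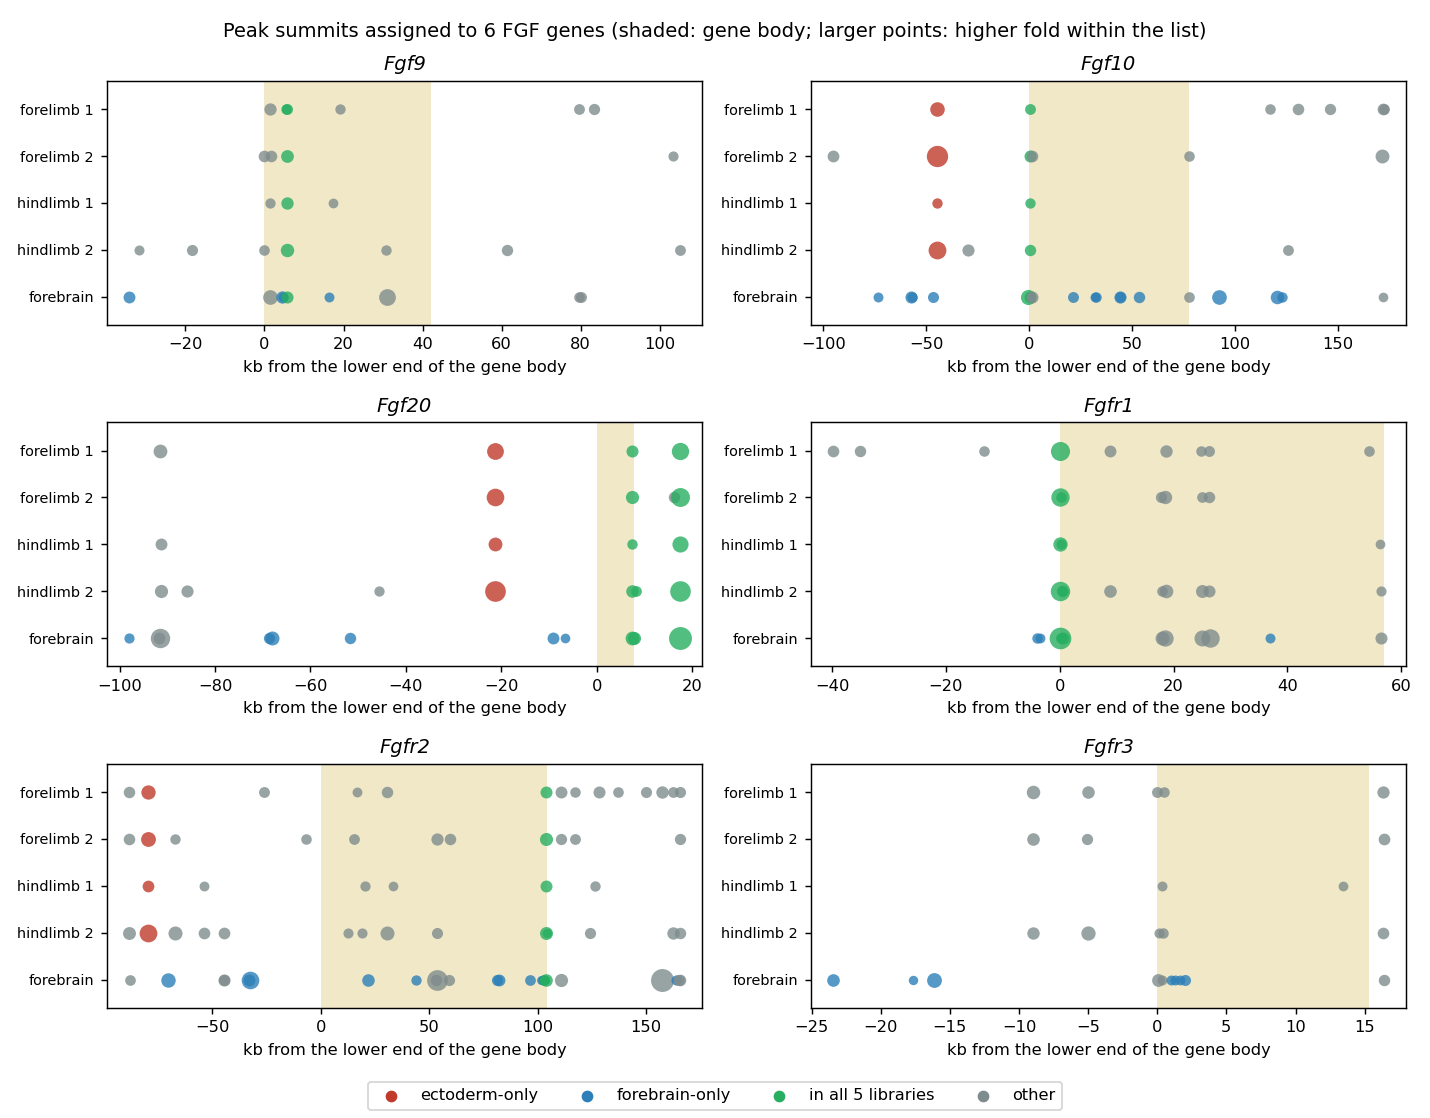
Points are peak summits assigned to 6 of the genes, by distance from the lower end of the gene body (kb, following the chromosome), with 1 row per library, ectoderm above forebrain. Shading marks the gene body and point size the fold in the library's own list. Red points, the ectoderm-only regions, appear at Fgf10, Fgf20 and Fgfr2 outside the gene, and grey points include the paired Fgfr3 regions before its start.

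Set side by side, these 5 regions, called in 3 or 4 of the ectoderm libraries but not in forebrain, lay 5.03 to 79.6 kb from the gene bodies. The share of all assigned regions that lie outside gene bodies was not worked out, so these distances are a description only. Their ranks in the forelimb lists were at percentiles 73.1 to 82.0 in replicate 1 and 54.6 to 94.4 in replicate 2. In hindlimb replicate 2 they ranked at 69.8 to 87.9. The regions were chosen for being called in several libraries, and the ranks are given as a description. Hindlimb replicate 1 held 3 of them, at percentile 80.7 for Fgf20, 70.7 for Fgfr2 and 14.2 for Fgf10.

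**Figure D5:**
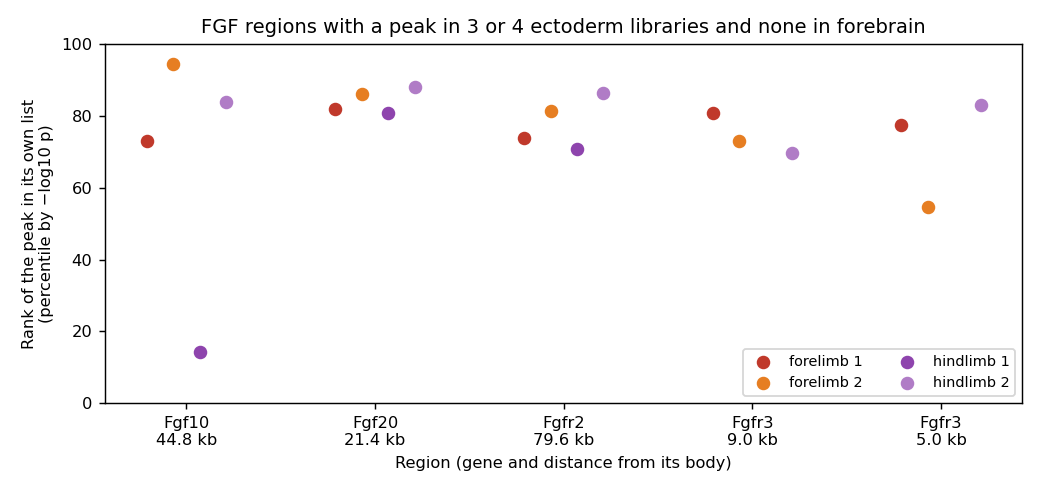
Each point is the rank of a peak in its own library's list, as a percentile by −log10 p, for the 5 FGF regions called in 3 or 4 of the ectoderm libraries but not in forebrain, and labels give the gene and the distance from its body. Hindlimb replicate 1 is absent from both Fgfr3 regions and low, at 14.2, for Fgf10.

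Forelimb and hindlimb were compared to ask whether FGF genes are open in 1 limb and not the other. Regions called in each forelimb library but in no hindlimb library numbered 3 of 121, against 1.98% of all assigned regions. The reverse pattern was seen in 2, against 0.672%. The forelimb regions were chr13:118886179-118886882, 93.7 kb beyond Fgf10 (folds 3.81 and 5.44 in forelimb), chr7:130273194-130273599, 6.55 kb before Fgfr2 (3.95 and 3.43), and chr7:130279453-130279782, 12.7 kb before Fgfr2 (2.88 and 3.12). Forebrain also had a peak in the first and second of these. The hindlimb regions were chr8:25574982-25575377, at the upper end of Fgfr1 (2.33 and 2.65 in hindlimb, and a forebrain peak), and chr7:130108289-130108610, 54.0 kb beyond the far end of Fgfr2 (2.45 and 3.76). None was assigned to a ridge ligand. At a −log10 q of 5 or more in every list the counts were 1 forelimb and 0 hindlimb regions of 63, against 2.12% and 0.417% of all assigned regions. With 1 library left out, the forelimb count was 12 of 106 without forelimb replicate 1, 21 of 115 without forelimb replicate 2, and 11 of 108 without hindlimb replicate 2. The shares over all assigned regions were then 13.4%, 13.8% and 8.41%. The hindlimb count was 17 of 116 without hindlimb replicate 1, 7 of 108 without hindlimb replicate 2 and 4 of 106 without forelimb replicate 1. Over all assigned regions the shares were 14.2%, 11.1% and 1.33%.

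Other genes of the pathway were taken from 6 lists, 45 genes in all. Start peaks were scored as above, at either end of the gene body where no start was listed. Genes that relay the signal inside the cell were open at their starts throughout: all 6 (Frs2, Frs3, Grb2, Sos1, Ptpn11 and Gab1) had a start peak in all 5 libraries. So did 7 of 9 feedback inhibitors, the exceptions being Spry3 and Spred3 with none in any library, 6 of 7 heparan sulfate genes and 2 of 3 target transcription factors. Among the other 16 ligands it was 3, and these were Fgf12, Fgf13 and Fgf14, which act inside neurons on sodium channels and are not secreted. Of the 4 other receptors and co-receptors it was 1, Fgfrl1. Start peaks in forebrain alone were found at Fgf1, Fgf7 and Fgf16, which is 3 of the 16 ligands and 3 of the 45 genes, against 3.85% of all genes. Together 25 of 45 genes had a start peak in all 5 libraries, against the 48.5% of all genes given above.

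The 45 genes held 702 regions, of which 23 were ectoderm-only (3.28%) and 234 forebrain-only (33.3%), close to the shares over all assigned regions. Among other ligands, Fgf14 had 2 ectoderm-only and 21 forebrain-only regions, Fgf12 3 and 19, and Fgf13 and Fgf18 0 and 6 each. Of the relay genes, the adaptor Gab1 had 0 and 12 and the docking protein Frs2 0 and 8, with Grb2 and Ptpn11 at 0 and 4 each. Among target factors, the ETS gene Etv1 had 0 and 12, Etv5 0 and 4 and Etv4 1 and 2. Of the heparan sulfate enzymes, Ext1 had 1 and 23, Hs2st1 3 and 17, and Hs6st2 and Ndst1 0 and 8 each. Among the other receptors and co-receptors, Kl had 2 and 4, Fgfr4 and Fgfrl1 0 and 1 each, and Klb 0 and 0. Among feedback inhibitors, which damp the Ras pathway after FGF stimulation, Spred2 had 0 and 11, Spred1 0 and 5, and Spry2 and Il17rd 1 and 7 each. The inhibitors held 5 ectoderm-only regions of 143, or 3.50% against 2.35% of all assigned regions, 1 each at Spry1, Spry2, Spry4, Dusp6 and Il17rd.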

How the data were processed

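Per the submitters' processing notes, the tools included MACS2 2.1.1.20160309 for peaks, Bowtie2 2.3.5, cutadapt 1.16, bedtools and Picard, and the build was mm10. A shift of reads for transposase binding, which would move summits by a few bases, is not given in the sources. Each library has a peak list of its own as the authors deposited it, with replicates not pooled. For each peak the deposited lists give a fold enrichment, a −log10 p and −log10 q, and a score, which was not used. Each value belongs to its own list. Values of several lists are set side by side as a description, and peaks were ranked within a list. A member's strongest region of ectoderm was taken as the one with the highest −log10 p in any of the 4 lists. The smallest −log10 q was 1.30 to 1.31, the value of a q of 0.05.

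Only chromosomes 1 to 19, X and Y were used. Each listed summit went to whichever protein-coding gene was nearest, up to 100 kb away, and ties kept both genes. Genes and starts came from RefSeq tables of GRCm38.p6, which give no exons, so exonic and intronic positions are not told apart. Peaks of all libraries were merged into regions by 1 bp of overlap. Absence from a list says only that no peak passed the threshold there. Assignment and merging were tested on simulated peaks. Python 3.11.15, pandas 2.3.3, numpy 2.4.6, scipy 1.17.1 and matplotlib 3.10.9 were used. Alternatives were a −log10 q of 5 or more, 100 bp of overlap, assignment within 20 kb, lists of equal length, the strongest summit of each interval, and each ectoderm library left out. A search for motifs inside peaks needs a genome and was not run, and promoters were searched instead. The members, lists and motifs were chosen with earlier results of these data known. The named genes are the 9 members with their strongest region in each tissue and every ectoderm-only, forelimb-only and hindlimb-only region, and up to 4 genes per pathway list with the largest difference between ectoderm-only and forebrain-only regions. Others are said to be singled out after their values were seen, which holds also for Fgf1, Fgf7, Fgf16, Spry1, Spry3, Spry4, Spred3, Dusp6, Frs3, Sos1 and the Fgfr3 regions of 3 libraries.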

Additional observations from a re-analysis of the deposited data

How the results depend on the processing

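Joining peaks only at 100 bp of overlap and keeping only the strongest summit of each interval left each of the 11 region counts within 1.5 times its value. The ectoderm-only count of ridge ligands was 0 in every setting run. At a −log10 q of 5 or more, Fgf10 and Fgf20 had 1 ectoderm-only, 8 forebrain-only and 1 shared region of all 5 libraries, ridge ligands had 3 forebrain-only regions, and the forelimb-only and hindlimb-only counts were 1 and 0. All assigned regions then had shares of 2.95% ectoderm-only, 41.0% forebrain-only, 11.9% in all 5 libraries, 2.12% forelimb-only and 0.417% hindlimb-only. Totals per class were not worked out for these settings. Assignment within 20 kb gave Fgf10 and Fgf20 0 ectoderm-only and 9 forebrain-only regions, receptors 0 ectoderm-only regions and 1 hindlimb-only region, since the regions concerned lie farther out. All assigned regions then had shares of 2.27% ectoderm-only, 31.9% forebrain-only and 0.658% hindlimb-only. Lists of equal length gave 2, 1 and 4 forebrain-only regions at ridge ligands, other ligands and receptors, and 1 hindlimb-only region, against 14.7% and 1.11% of all assigned regions. The 9 genes held 63 regions at the stricter threshold, 73 within 20 kb and 58 in lists of equal length, against 121 in the main setting. Requiring 3 ectoderm libraries instead of 4, a choice made after seeing the data, gave receptors 3 ectoderm-only regions of 59, against 5.37% of all assigned regions.

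With 1 ectoderm library left out, forelimb-only counts ranged from 4 to 21 and hindlimb-only counts from 2 to 17, since 1 library then stands for a limb. Receptor counts ranged from 1 to 3 ectoderm-only and from 2 to 8 in all remaining libraries, with both higher values without hindlimb replicate 1. Ridge ligands had 1 to 2 regions in all remaining libraries, the higher value without hindlimb replicate 2, where the share over all assigned regions was 9.22%. No paired analysis was possible because the counts come from no test, so there is no fit to which a replicate block could be added. The lists hold no read totals, so a peak missing from the short hindlimb replicate 1 list may be below its threshold rather than closed.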

Other observations

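Several pathway genes outside the 9 members had an ectoderm-only region, and those given here were singled out after their values were seen. Near Spry1, a feedback inhibitor of FGF receptors, chr3:37667625-37668142 had folds of 11.2 and 9.69 in forelimb and 3.81 and 11.4 in hindlimb. At Spry2, chr14:105982516-105983060 had 7.40 and 5.73 in forelimb and 3.82 and 6.87 in hindlimb. At Il17rd, chr14:27070827-27071157 had 7.88 and 6.62 in forelimb and 2.92 and 5.76 in hindlimb. The region at Dusp6, a phosphatase that switches off MAP kinase, was chr10:99243742-99244339, with 3.37 and 3.34 in forelimb and 4.85 and 5.56 in hindlimb. Near Kl, chr5:150996353-150996933 had 10.8 and 8.86 in forelimb and 4.34 and 11.9 in hindlimb. Sdc1, a heparan sulfate proteoglycan of epithelia, had 2 ectoderm-only regions and 1 forebrain-only region.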
